A study of Homo sapiens with 6 samples.

Results

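Solute carriers are membrane proteins that move nutrients, ions, vitamins, nucleotides and drugs across the plasma membrane and the membranes of organelles. Their genes are grouped into numbered families by sequence, and the letter A and a second number give the member within the family. Most carriers work as exchangers or as cotransporters driven by sodium or proton gradients, and family 25 serves the inner mitochondrial membrane. In pancreatic cancer cells, carriers of glutamine, cystine, lactate, zinc and nucleoside drugs such as gemcitabine are widely studied.

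The genes described here are those whose symbol has the form SLC, a family number, A and a member number, and whose FPKM (fragments per kilobase of transcript, scaled to the mapped fragments of the library) was at least 1 in at least 1 library. Of 295 records with such a symbol, 174 met this, in 44 of 49 families, and the other 121 stayed below 1 everywhere. Just inside the threshold were SLC27A5, SLC17A9 and SLC26A3, whose highest FPKM values were 1.03, 1.04 and 1.07. Just outside were SLC15A2, SLC2A11 and SLC6A14, with highest values of 0.955, 0.937 and 0.879. A gene that is off in one line met the rule only through the other line, so the 174 genes were partly chosen by the line difference described below, and counts of line calls among them are a description.

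Both cell lines, CFPAC and KP3, are established lines of human pancreatic cancer. Each line received a control siRNA, an siRNA against the kinase NEK6 or an siRNA against the related kinase NEK7, and each of the 6 conditions is 1 library, with no replicate. The genotype and treatment tags give the controls as WT and the others as NEK6 or NEK7 knockdown. An siRNA lowers its target only in part, and the labels give no time after transfection and no siRNA sequence.

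Libraries held 59478910 to 66067379 counts. NEK6 stood at 15.2, 4.09 and 14.2 FPKM in CFPAC with control, NEK6 and NEK7 siRNA and at 21.3, 6.98 and 22.4 in KP3, and NEK7 at 14.8, 18.0 and 2.40 and at 14.7, 12.4 and 5.79. Each target was thus lowest in the library labelled for it. Keratins KRT8, KRT18 and KRT19 and the adhesion protein EPCAM, all epithelial markers, were at 20.4 FPKM or more in every library, and the leukocyte and endothelial markers PTPRC, PECAM1 and VWF at 0.197 or less, but the macrophage marker CD68 was at 47.5 to 76.9 in all libraries. The ductal keratin KRT7 was at 0.817 to 1.67. Decorin (DCN), a fibroblast marker, was at 7.07 to 9.56 in CFPAC and 0.144 to 0.189 in KP3, whereas the fibroblast collagens COL1A1 and COL1A2 were at 1.97 to 3.19 and 0.856 to 1.40 in CFPAC and at 2.22 to 2.56 and 0.895 to 1.14 in KP3, with overlapping lines. The part of these markers in the line differences was not tested. In bulk RNA, fewer cells that use a gene and less RNA of it per cell cannot be told apart.

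The promoters of a few genes that carry the results are shown first, as 300 bases from 250 before to 50 after the RefSeq start (GRCh38.p14), 5′ to 3′ on the gene's strand. SLC25A5 and SLC25A6, which encode ADP/ATP carriers and had the highest mean FPKM of all 174, are set beside SLC44A5 and SLC2A12, which were near 0 in one of the lines. In these 4, capitals mark CpG dinucleotides. They lie at chrX:119468194-119468493 (plus strand), chrX:1392064-1392363 (minus), chr1:75611065-75611364 (minus) and chr6:134052575-134052874 (minus).
SLC25A5: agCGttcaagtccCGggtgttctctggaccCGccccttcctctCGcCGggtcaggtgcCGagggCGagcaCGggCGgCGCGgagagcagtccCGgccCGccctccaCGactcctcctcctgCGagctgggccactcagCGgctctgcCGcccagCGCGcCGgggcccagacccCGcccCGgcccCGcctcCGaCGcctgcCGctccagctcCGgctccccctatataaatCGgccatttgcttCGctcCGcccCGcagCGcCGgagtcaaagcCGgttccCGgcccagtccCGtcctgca
SLC25A6: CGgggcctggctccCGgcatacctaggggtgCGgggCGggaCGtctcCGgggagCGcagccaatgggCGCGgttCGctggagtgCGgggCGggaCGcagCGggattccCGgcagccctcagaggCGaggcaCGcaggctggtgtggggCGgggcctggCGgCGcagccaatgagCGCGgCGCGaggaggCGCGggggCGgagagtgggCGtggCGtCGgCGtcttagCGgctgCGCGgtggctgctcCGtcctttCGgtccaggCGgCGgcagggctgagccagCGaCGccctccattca
SLC44A5: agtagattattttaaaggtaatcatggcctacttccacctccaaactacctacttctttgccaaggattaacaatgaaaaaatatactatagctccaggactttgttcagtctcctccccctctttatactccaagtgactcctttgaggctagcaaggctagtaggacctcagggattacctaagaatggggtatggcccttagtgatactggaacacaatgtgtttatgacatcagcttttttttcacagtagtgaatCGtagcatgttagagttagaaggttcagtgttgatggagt
SLC2A12: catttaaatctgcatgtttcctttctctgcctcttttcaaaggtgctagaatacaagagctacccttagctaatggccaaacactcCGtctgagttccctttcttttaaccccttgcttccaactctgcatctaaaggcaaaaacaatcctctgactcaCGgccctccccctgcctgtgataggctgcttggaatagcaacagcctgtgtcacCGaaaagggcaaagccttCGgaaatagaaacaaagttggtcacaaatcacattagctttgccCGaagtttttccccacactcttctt
SLC25A5 held 36 CpG and SLC25A6 held 40, against 1 in SLC44A5 and 5 in SLC2A12. Promoters were found for 139 of the 174 genes. The median ratio of observed to expected CpG was 0.854 over 111 promoters of carriers with an FPKM of 1 or more in both lines, 0.605 over 15 of those reaching it in CFPAC alone and 0.719 over 13 of those reaching it in KP3 alone. It was 0.421 over 92 carriers below 1 in every library and 0.580 over all 27305 promoters in the table. SLC44A5, which reached 1 in CFPAC alone, and SLC2A12, which reached it in KP3 alone, had ratios of 0.0806 and 0.348. Both were below the median of their group, so they are not typical of it. These are descriptions of sequence, with no test. For 101 of the 139, the RefSeq start lay within 200 bases of the start of the deposited record.

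Carriers of amino acids include targets of the stress factor ATF4, which binds amino acid response elements. The word TGATGNAAN was searched on both strands. It was present in 7 of 139 carrier promoters (5.04%) and in 3.67% of all promoters, and in 2 of 8 on a list of ATF4-linked amino acid carriers, SLC3A2 and SLC7A1. Words for other responses were searched as well. The antioxidant word TGACNNNGC was in 19.4% of carrier promoters and 13.6% of all promoters. The hypoxia word ACGTG was in 27.3% and 21.6%. Each of these was in 3 of the 8 listed promoters. The promoter of SLC7A1, the arginine carrier CAT1, is at chr13:29595639-29595938 (minus), with the TGATGNAAN match in capitals starting 8 bases into the transcript.
SLC7A1: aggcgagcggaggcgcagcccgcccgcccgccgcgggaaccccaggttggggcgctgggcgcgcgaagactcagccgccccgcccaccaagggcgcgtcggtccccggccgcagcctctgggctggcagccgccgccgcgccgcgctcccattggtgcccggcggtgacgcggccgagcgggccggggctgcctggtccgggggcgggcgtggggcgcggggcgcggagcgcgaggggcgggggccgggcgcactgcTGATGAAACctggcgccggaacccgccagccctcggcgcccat
The match is a description of letters and was not tied to binding. SLC7A1 had FPKM values of 10.04, 13.2 and 12.3 in CFPAC with control, NEK6 and NEK7 siRNA and 10.1, 13.2 and 10.5 in KP3, so it was highest in the NEK6 siRNA library of each line. For NEK6 siRNA its edgeR log2 fold change was 0.40 (SE 0.12, edgeR adjusted p = 0.639). SLC3A2, the other listed carrier with the TGATGNAAN match, went the other way (-0.28, SE 0.11, edgeR adjusted p = 0.676). A link between the match and these differences was not tested.

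Throughout, values of a gene are given in the order control, NEK6 and NEK7 siRNA, first in CFPAC and then in KP3. Together the 174 genes took 1.18%, 1.28% and 1.24% of counts in CFPAC and 1.149%, 1.03% and 1.12% in KP3. In all 6 libraries, 128 had an FPKM of 1 or more. The value 1 was reached in some library of both lines by 139, in CFPAC alone by 22 and in KP3 alone by 13. The median over genes of the mean FPKM was 4.57, against 3.98 over all 14582 records that reached 1. Means of 10 or more were found for 49 genes, and means of 100 or more for 3, which were SLC25A5, SLC25A6 and the small neutral amino acid carrier SLC38A2.

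The first comparison was of the lines, which the design text names. Called higher in CFPAC and higher in KP3 were 7 and 0 of 9 iron, copper, magnesium, calcium and heme carriers, 11 and 6 of 19 proton, bicarbonate and chloride carriers, 7 and 1 of 12 vitamin and choline carriers, and 12 and 15 of 38 mitochondrial carriers. The edgeR test across all 14582 records, at an adjusted p under 0.05, called 125 of the 174 genes (71.8%, against 56.4% of all records). Of these, 75 were higher in CFPAC (43.1%, against 29.3%) and 50 were higher in KP3 (28.7%, against 27.1%). At an unadjusted p under 0.05, edgeR gave 132 (62.3% of all records), 81 higher in CFPAC (32.1%) and 51 higher in KP3 (30.2%). DESeq2 at an adjusted p under 0.05 gave 134 (62.5%), 82 higher in CFPAC (32.4%) and 52 higher in KP3 (30.1%). The 3 FPKM values of each line did not overlap for 126 genes (64.2% of all records). The same was done for records with a mean FPKM of at least 5 over all libraries, which a gene can also pass through 1 line alone, as SLC40A1, SLC7A7 and SLC37A2 did. There 58 of 79 carriers were called (73.4%, against 65% of 6341 records), with 36 higher in CFPAC (45.6%, against 32.8%) and 22 higher in KP3 (27.8%, against 32.2%). The median log2 fold change of CFPAC against KP3 was 0.21 over the 174 genes and -0.000953 over all records tested. Each line's 3 libraries carry different siRNAs and nothing states separate cultures, so the p-values measure the line difference against its spread over siRNA conditions, with 2 residual degrees of freedom.

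**Figure D1:**
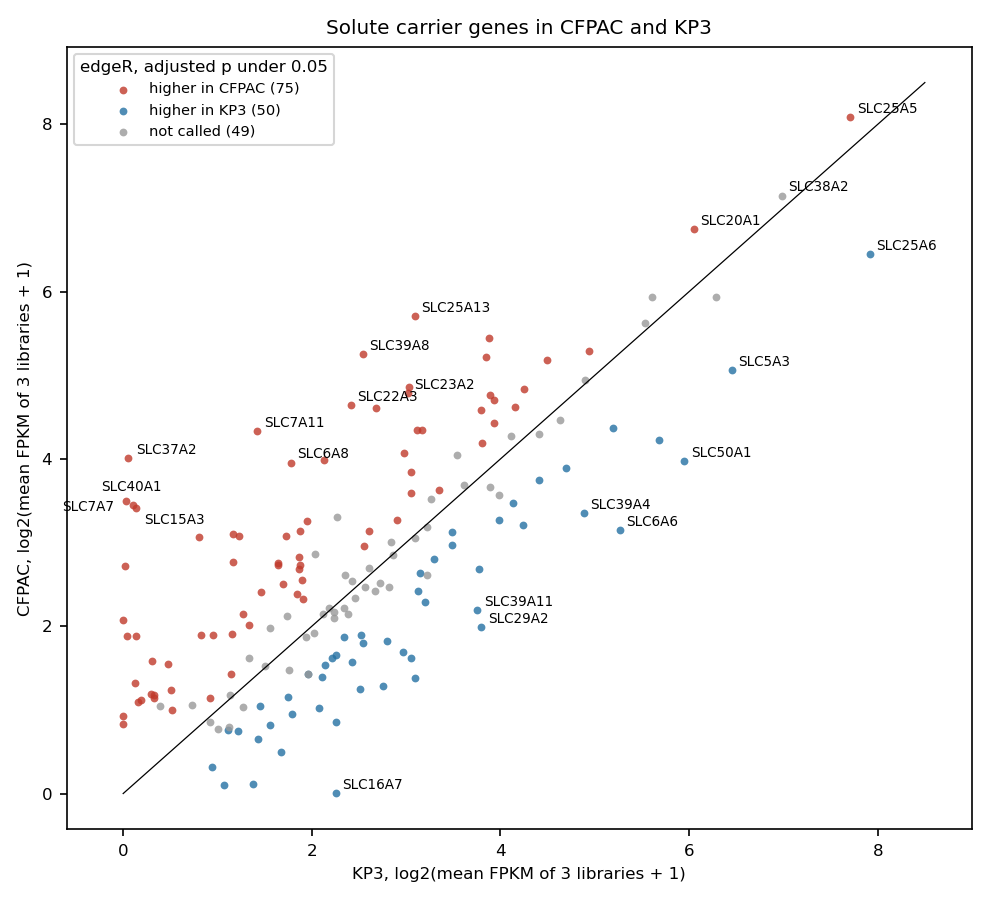
Mean FPKM of 3 libraries per line for each of the 174 solute carrier genes, as log2(mean FPKM + 1), KP3 on the x axis and CFPAC on the y axis. Red points (75) were called higher in CFPAC and blue points (50) higher in KP3 by edgeR at an adjusted p under 0.05, and grey points (49) were not called. SLC40A1, SLC37A2, SLC7A7 and SLC15A3 stand near 0 on the KP3 axis and SLC16A7 near 0 on the CFPAC axis.

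Metal carriers outside the zinc families had 7 of 9 genes higher in CFPAC (29.3% of all records) and 0 higher in KP3 (27.1%). Of the 9 genes, 7 reached 1 FPKM in both lines, and SLC40A1 met the FPKM rule only through CFPAC. SLC40A1 (ENSG00000138449, chromosome 2, 189560590 to 189583758), ferroportin, the only known cellular iron exporter, had 9.80, 8.07 and 12.9 FPKM in CFPAC and 0.0234, 0.0250 and 0.0114 in KP3. All CFPAC libraries were high and all KP3 libraries were close to 0 (log2 fold change 8.93, SE 0.35, edgeR adjusted p = 0.000154). SLC48A1, a heme carrier, had 19.7, 14.1 and 13.6 FPKM against 8.03, 7.49 and 5.17, and the lines did not overlap (1.24, SE 0.13, edgeR adjusted p = 0.00146). SLC41A3, of a magnesium carrier family, had 6.17, 5.02 and 6.24 against 0.987, 0.710 and 2.01 (2.41, SE 0.28, edgeR adjusted p = 0.00190).
The ferrous iron importer SLC11A2 had 6.92, 9.81 and 9.21 FPKM against 6.46, 7.05 and 5.90, and its lines overlapped. It was called (0.45, SE 0.13, edgeR adjusted p = 0.0372), but the call was lost without the NEK6 or the NEK7 siRNA library of either line, with an adjusted p of up to 0.138. The copper importer SLC31A1 had 15.8, 18.5 and 17.6 against 12.6, 12.3 and 14 (0.46, edgeR adjusted p = 0.0169), lost without the control or NEK6 siRNA library of either line at up to 0.0672. For SLC41A2, at 0.35, the call was lost whichever library was left out, with edgeR adjusted p-values of 0.0677 to 0.121.

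Zinc carriers went both ways, with 6 higher in CFPAC (29.3% of all records), 5 higher in KP3 (27.1%) and 6 not called of 17. Members of family 39 bring zinc into the cytosol and members of family 30 take it out. SLC39A8 (ZIP8) had 27.6, 52.0 and 31.6 FPKM in CFPAC and 4.69, 5.42 and 4.40 in KP3, so all CFPAC values were above all KP3 values (2.93, SE 0.17, edgeR adjusted p = 0.000306). The zinc exporter SLC30A1 (ZnT1) had 19.6, 30.5 and 20.3 against 4.72, 5.62 and 5.84 (2.14, SE 0.16, edgeR adjusted p = 0.000549). In CFPAC, SLC39A8 and SLC30A1 were both highest in the NEK6 siRNA library.
SLC39A4 (ZIP4), a plasma membrane importer studied in pancreatic cancer, had 9.86, 10.01 and 7.73 FPKM in CFPAC and 33.5, 28.1 and 24.1 in KP3 (-1.59, SE 0.10, edgeR adjusted p = 0.000411). SLC39A11 (ZIP11) had 3.72, 3.33 and 3.67 against 11.5, 11.9 and 14.2 (-1.76, SE 0.12, edgeR adjusted p = 0.000441). Both were thus lower in every CFPAC library than in any KP3 library. SLC39A7 (ZIP7), which releases zinc from the endoplasmic reticulum, was high in both lines, at 52.3, 58.1 and 70.7 and at 78.9, 63.4 and 88.1 FPKM, and did not pass the test (edgeR adjusted p = 0.0843).

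Among 21 amino acid carriers, 9 were higher in CFPAC (29.3% of all records), 4 higher in KP3 (27.1%) and 8 not called. SLC7A11 (ENSG00000151012, chromosome 4, 138164097 to 138242349), the cystine and glutamate exchanger xCT, had 15.1, 19.1 and 23.1 FPKM in CFPAC and 0.688, 2.17 and 2.19 in KP3. Its mean was 11.4-fold higher in CFPAC, and within each line both NEK siRNA libraries were above the control (3.70, SE 0.30, edgeR adjusted p = 0.000733). SLC3A2, the CD98 heavy chain that carries both SLC7A11 and SLC7A5 to the cell surface, had 38.2, 32.8 and 35.1 against 24.0, 18.8 and 21.8 (0.76, SE 0.09, edgeR adjusted p = 0.00205).
SLC7A5 (LAT1), the leucine carrier, had 27.8, 20.3 and 27.0 FPKM against 19.5, 9.13 and 14.1 (0.91, SE 0.15, edgeR adjusted p = 0.00558). SLC7A7, another light chain of the same kind for arginine and leucine, had 11.1, 9.26 and 9.50 against 0.102, 0.0966 and 0.0183. Of these genes, SLC7A7 and SLC7A11 showed the wider line gap (SLC7A7 7.21, SE 0.49, edgeR adjusted p = 0.000475).
Glutamine carriers included genes with and without a line call. SLC1A5 (ASCT2) had 33.8, 50.7 and 60.9 FPKM in CFPAC and 44.8, 41.8 and 49 in KP3, and SLC38A2 (SNAT2) had 131, 178 and 114 against 122, 111 and 144. The lines overlapped for both, and neither passed the test (edgeR adjusted p = 0.621 and 0.477). SLC38A1 (SNAT1) had 32.4, 41.5 and 34.5 against 13.1, 12.6 and 14.5, with no overlap (1.47, SE 0.13, edgeR adjusted p = 0.000898).
SLC1A3 (EAAT1), a glutamate importer, was the amino acid carrier with the most negative fold change, with 0.0431, 0.0804 and 0.0877 FPKM in CFPAC and 1.08, 1.151 and 1.04 in KP3 (-3.93, SE 0.36, edgeR adjusted p = 0.000985). Of a list of 9 ATF4-linked amino acid carriers, 8 were tested, with a median log2 fold change of 0.78. They held 4 higher in CFPAC (29.3% of all records) and 0 higher in KP3 (27.1% of all records). The 4 were SLC7A11, SLC7A5, SLC3A2 and SLC6A9, the glycine carrier GlyT1, which had 2.48, 2.31 and 3.31 FPKM against 0.0134, 0.00337 and 0.0641. Among them, SLC6A9 met the FPKM rule only through CFPAC.

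Of 38 mitochondrial carriers, 12 were higher in CFPAC (29.3% of all records), 15 higher in KP3 (27.1%) and 11 not called. The ADP/ATP carriers, which export ATP from mitochondria, differed in their balance. SLC25A5 (ENSG00000005022, chromosome X, 119468422 to 119471396) had 257, 284 and 272 FPKM in CFPAC and 225, 202 and 199 in KP3. SLC25A6 (ENSG00000169100, chromosome X, 1386152 to 1392113, in the region shared with Y) had 82.7, 93.4 and 82.9 against 264, 229 and 231. SLC25A6 therefore made up 24.2%, 24.6% and 23.3% of the summed FPKM of the 3 carriers measured in CFPAC and 53.6%, 52.4% and 53.3% in KP3.
For SLC25A6 the line difference was -1.44 (SE 0.11, edgeR adjusted p = 0.000631). For SLC25A5 it was 0.42 (SE 0.10, edgeR adjusted p = 0.0194), a call lost without the NEK6 or NEK7 siRNA library of either line at up to 0.0939. SLC25A4, the muscle form, was low at 1.962, 2.22 and 1.72 against 4.41, 4.98 and 3.75 (-1.11, SE 0.13, edgeR adjusted p = 0.00194). Reads of near-identical copies could have been split in counting, and 4 SLC25A5 pseudogene records reached at most 0.563 FPKM.
The aspartate and glutamate carrier SLC25A13 (citrin), part of the malate-aspartate shuttle, had 45.2, 58.6 and 49.8 FPKM in CFPAC and 6.97, 8.10 and 7.47 in KP3 (2.81, SE 0.10, edgeR adjusted p = 0.000129). Its relative SLC25A12 (aralar) had 4.67, 4.78 and 6.82 against 3.07, 2.44 and 2.42 (1.07, SE 0.20, edgeR adjusted p = 0.00838). Both were higher in CFPAC, and SLC25A13 held most of their summed FPKM in every library. The mitochondrial iron importer SLC25A28 (mitoferrin-2) had 46.6, 42.7 and 39.0 against 13.7, 13.8 and 13.6, and the lines did not overlap (1.68, SE 0.11, edgeR adjusted p = 0.000393).
The citrate carrier SLC25A1, which supplies citrate for fatty acid synthesis, had 23.7, 15.2 and 14.3 FPKM in CFPAC and 39.3, 60.0 and 52.1 in KP3 (-1.48, SE 0.28, edgeR adjusted p = 0.00900). Without the NEK6 siRNA library of either line its line difference was -1.25. The edgeR adjusted p was 0.0463 without that of CFPAC and 0.0507 without that of KP3, so the call was near the threshold. SLC25A35 had 1.97, 1.38 and 1.44 against 7.25, 9.37 and 5.92, and SLC25A27 (UCP4) 1.31, 1.55 and 1.44 against 6.20, 4.99 and 6.03. They had the most negative fold changes of the family (-2.17 and -1.95, edgeR adjusted p = 0.00128 and 0.00102).

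**Figure D2:**
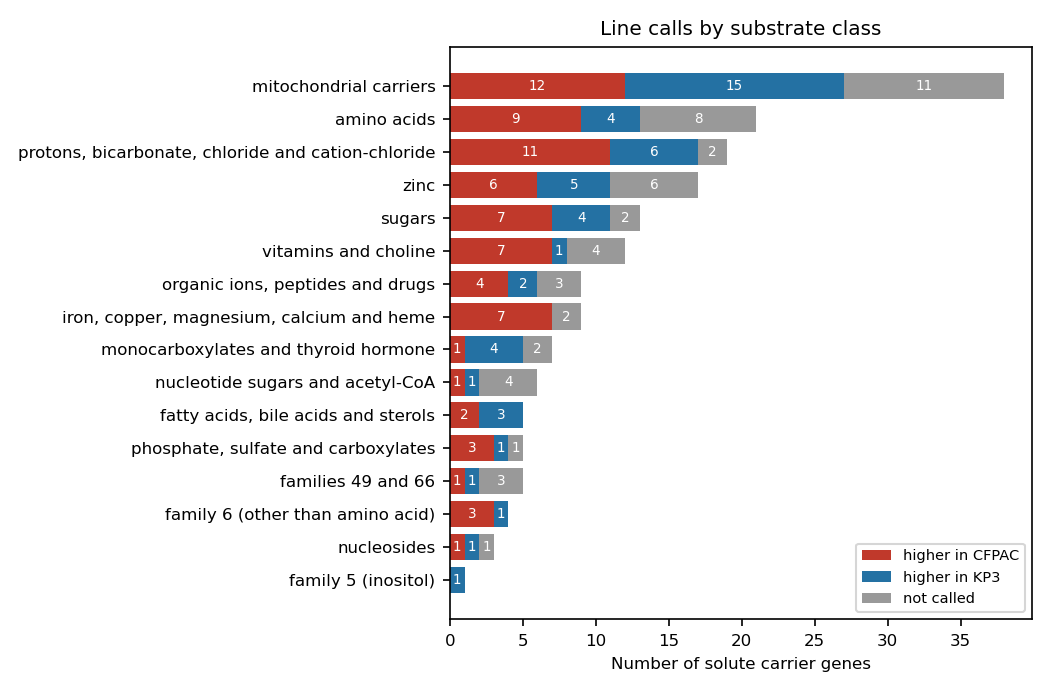
Number of the 174 genes in each substrate class that were called higher in CFPAC (red), called higher in KP3 (blue) or not called (grey) by edgeR at an adjusted p under 0.05. Mitochondrial carriers, the largest class with 38 genes, were split 12 to 15, and the class of iron, copper, magnesium, calcium and heme carriers had 7 higher in CFPAC and none higher in KP3. Over all records, 29.3% were called higher in CFPAC and 27.1% higher in KP3.

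Proton, bicarbonate and chloride carriers had 11 higher in CFPAC (29.3% of all records), 6 higher in KP3 (27.1%) and 2 not called of 19. SLC12A2 (NKCC1), the basolateral loader of chloride in secreting epithelia, had 6.73, 6.61 and 9.09 FPKM in CFPAC and 1.38, 1.39 and 1.27 in KP3 (2.50, SE 0.16, edgeR adjusted p = 0.000398). SLC12A7 (KCC4), a potassium and chloride exporter, had 27.6, 25 and 31.5 against 7.42, 7.29 and 6.85 (2.00, SE 0.12, edgeR adjusted p = 0.000352). The CFPAC values of both were above every KP3 value. The chloride and bicarbonate exchanger SLC4A2 (AE2) had 27.5, 25.5 and 25.7 against 14.2, 13.8 and 13.4 (0.97, SE 0.09, edgeR adjusted p = 0.000956).
The sodium and bicarbonate importer SLC4A7 had the opposite direction, with 2.08, 1.88 and 2.74 FPKM in CFPAC and 6.97, 4.93 and 8.49 in KP3 (-1.54, SE 0.12, edgeR adjusted p = 0.000618). SLC26A3, a chloride and bicarbonate exchanger of the gut, had 1.07, 0.640 and 0.643 FPKM in CFPAC, and 0 in all KP3 libraries. With 584 counts against 0 over 3 libraries each, and a floor of 3 counts over the group, it was at least 198-fold higher in CFPAC. Floors and counting intervals cover counting error only.
SLC9A3 (NHE3) had 1.52, 1.22 and 1.35 FPKM in CFPAC and 0.0994, 0.106 and 1.07 in KP3, so the KP3 NEK7 siRNA library stood well above the other KP3 libraries. Its call (2.68, SE 0.86, edgeR adjusted p = 0.0479) was lost without the control or NEK6 siRNA library of either line, at up to 0.199. On a list of 8 carriers of ductal fluid secretion, 6 were tested. Of these, 5 were higher in CFPAC (29.3% of all records) and 1 higher in KP3 (27.1% of all records). Among the 5, SLC26A3 met the FPKM rule only through CFPAC. The 1 higher in KP3 was SLC26A6, a chloride and bicarbonate exchanger, at 2.22, 1.69 and 1.80 against 4.24, 3.06 and 2.95 (-0.79, edgeR adjusted p = 0.00560). SLC26A9 of this list was at 0.0357 FPKM or less in every library, and SLC4A4 was not analysed here.

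Sugar carriers had 7 higher in CFPAC (29.3% of all records), 4 higher in KP3 (27.1%) and 2 not called of 13. The glucose importer SLC2A1 (GLUT1) had 20.7, 22.7 and 18.6 FPKM in CFPAC and 14, 12.8 and 16.1 in KP3 (0.58, SE 0.15, edgeR adjusted p = 0.0230). The lines did not overlap, but the call was lost without the control or NEK6 siRNA library of either line, at up to 0.0867. SLC37A2 (ENSG00000134955, chromosome 11, 125063302 to 125090516), a sugar phosphate exchanger of the endoplasmic reticulum, had 10.8, 16.3 and 18.4 against 0.00682, 0.0455 and 0.0486 (8.85, SE 0.37, edgeR adjusted p = 0.000161).
SLC50A1 (SWEET1), a sugar exporter, had 15.6, 12.8 and 15.7 FPKM in CFPAC and 59.6, 59.2 and 63.7 in KP3 (-2.01, SE 0.11, edgeR adjusted p = 0.000270). SLC2A12 (GLUT12) had 0.119, 0.0539 and 0.0766 against 0.790, 1.34 and 2.67. In KP3 its NEK7 siRNA library was the highest and its control the lowest (line difference -4.09, SE 0.59, edgeR adjusted p = 0.00372).
Of 7 carriers of lactate, other monocarboxylates and thyroid hormone, 1 was higher in CFPAC (29.3% of all records) and 4 higher in KP3 (27.1%). SLC16A7 (MCT2, ENSG00000118596, chromosome 12, 59596029 to 59789855), a pyruvate and lactate carrier, had 0, 0.00732 and 0.00733 FPKM in CFPAC and 3.40, 4.26 and 3.70 in KP3. It thus rested on 0, 8 and 8 counts in CFPAC and on 3569 or more in each KP3 library (-9.46, SE 0.54, edgeR adjusted p = 0.000303). SLC16A3 (MCT4), the lactate exporter of glycolytic cells, had 24.6, 35.8 and 28.7 against 31.1, 32.8 and 22.3, with overlapping lines (edgeR adjusted p = 0.622).
SLC16A1 (MCT1) had 22.7, 24.8 and 23.5 FPKM against 18.6, 15.2 and 16.6 (0.54, SE 0.12, edgeR adjusted p = 0.0138). Its call was lost without the NEK6 siRNA library of CFPAC or the NEK7 siRNA library of either line, at up to 0.0536. Without the KP3 NEK6 siRNA library the edgeR adjusted p was 0.04996, just under the threshold. Basigin (BSG), which carries SLC16A1 and SLC16A3 to the surface, had 172, 130 and 178 against 78.7, 76.0 and 109. It was higher in each CFPAC library than in any KP3 library (0.91, edgeR adjusted p = 0.00291).

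**Figure D3:**
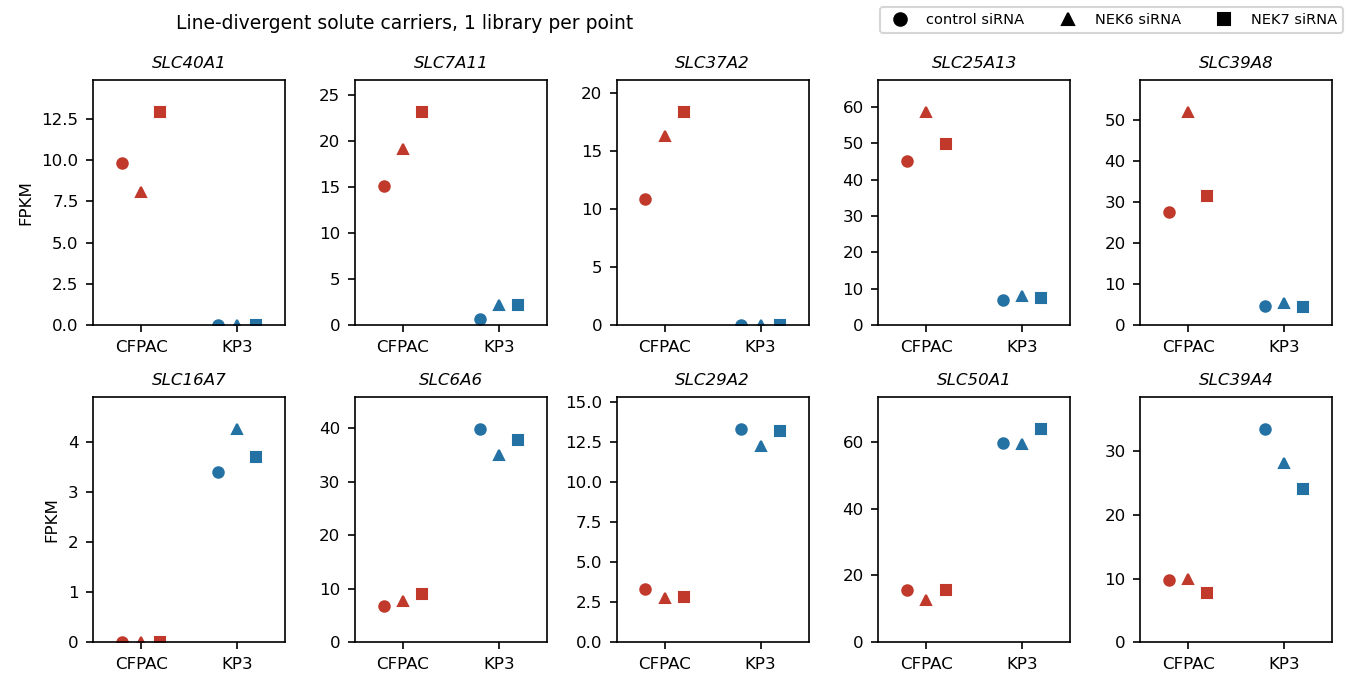
FPKM in each of the 6 libraries for 10 solute carriers that differ between the lines, each panel on its own linear axis from 0. Circles are control siRNA, triangles NEK6 siRNA and squares NEK7 siRNA, red for CFPAC and blue for KP3. In every panel the 3 points of a line lie on the same side of the 3 points of the other, as with SLC25A13 at 45.2 or more in CFPAC and 8.10 or less in KP3.

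Osmolyte and creatine carriers were split. SLC6A6, the taurine carrier, had 6.88, 7.82 and 8.97 FPKM in CFPAC and 39.8, 35.0 and 37.8 in KP3 (-2.21, SE 0.13, edgeR adjusted p = 0.000303). SLC5A3, the myo-inositol carrier, had 33.6, 31.7 and 32.3 against 84.8, 67.9 and 107 (-1.34, SE 0.15, edgeR adjusted p = 0.00169). Both were lower in CFPAC. SLC5A3 shares its span on chromosome 21 and its strand with MRPS6, which had 43.1, 32.9 and 29.6 against 72.5, 61.8 and 77.8, and how reads were divided between the records is not stated.
SLC6A12, which takes up betaine and GABA, had 3.83, 3.07 and 2.72 FPKM in CFPAC and 0 in all KP3 libraries. With 3730 counts against 0 it was at least 1264-fold higher in CFPAC on the same floor. The creatine carrier SLC6A8 had 13.6, 13.1 and 16.9 against 1.95, 2.95 and 2.40 (2.63, SE 0.18, edgeR adjusted p = 0.000448).

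Nucleoside carriers take up gemcitabine, a mainstay drug of pancreatic cancer. SLC29A1 (ENT1) had 3.46, 2.59 and 4.01 FPKM in CFPAC and 2.99, 1.89 and 2.13 in KP3, with overlapping lines and an edgeR adjusted p of 0.0521. SLC29A2 (ENT2) had 3.31, 2.75 and 2.85 against 13.3, 12.2 and 13.2, with no overlap (-2.08, SE 0.13, edgeR adjusted p = 0.000356). The concentrative carriers SLC28A1, SLC28A2 and SLC28A3 were at 0.332 FPKM or less in every library.
Among 9 carriers of organic ions, peptides and drugs, 4 were higher in CFPAC (29.3% of all records) and 2 higher in KP3 (27.1%). SLC22A3 (OCT3), an organic cation carrier, had 23.5, 24.5 and 23.9 FPKM against 3.89, 3.39 and 5.70 (2.55, SE 0.19, edgeR adjusted p = 0.000558). SLC15A3, a lysosomal peptide and histidine carrier, had 8.41, 8.31 and 12.3 against 0.107, 0.0594 and 0.125 (6.65, SE 0.21, edgeR adjusted p = 0.000114). SLC15A1 (PepT1), the peptide carrier of the gut brush border, had 19.6, 21.3 and 15.2 in CFPAC and 20.9, 21.4 and 18.6 in KP3, with overlapping lines and an edgeR adjusted p of 0.515.
Vitamin and choline carriers had 7 higher in CFPAC (29.3% of all records), 1 higher in KP3 (27.1%) and 4 not called of 12. SLC23A2 (SVCT2), the ascorbate carrier, had 22, 25.7 and 32.2 FPKM against 7.65, 6.23 and 7.38 (1.94, SE 0.15, edgeR adjusted p = 0.000631). SLC44A5, of the choline carrier family, had 4.87, 7.16 and 4.75 against 0, 0 and 0.0453. SLC44A3 of the same family was the one higher in KP3, at 0.975, 0.912 and 0.923 against 2.51, 2.24 and 2.60 (-1.34, SE 0.22, edgeR adjusted p = 0.00598).
The phosphate importer SLC20A1 (PiT1) was among the carriers with the highest levels, at 113, 116 and 90.9 FPKM in CFPAC and 81.2, 75.2 and 39.9 in KP3 (0.81, SE 0.16, edgeR adjusted p = 0.0106). SLC17A9, a vesicular nucleotide carrier, had 1096 counts in CFPAC and 0 in KP3, at least 371-fold higher in CFPAC. SLC17A5 (sialin), the lysosomal exporter of sialic acid, had 12.9, 13.0 and 15.8 FPKM against 25.1, 18.1 and 31.7 (-0.77, SE 0.14, edgeR adjusted p = 0.00813).

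The second comparison asked which carriers moved with NEK6 siRNA in both lines. No gene was called by edgeR, and the smallest adjusted p among the 174 was 0.296. At an unadjusted p under 0.05, edgeR gave 20 of the 174 (11.5%, against 7.36% of all records), 8 higher (3.56% of all records) and 12 lower (3.80%). DESeq2 on the same counts called 5 (2.87%, against 1.98%), 1 higher (0.946% of all records) and 4 lower (1.03%). Differences within a line are given as log2(FPKM + 1) and have no replicate check. At least 1.5-fold in both lines, 1 gene was higher (0.575%, against 0.665% of all records) and 3 were lower (1.72%, against 0.789%). NEK6 and NEK7 siRNA were compared with the same control library in each line, so likeness between these comparisons was not assessed.

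Of the 5 carriers called by DESeq2 with NEK6 siRNA, 4 were lower. SLC25A10 (ENSG00000183048, chromosome 17, 81712236 to 81721016), the mitochondrial dicarboxylate carrier, had 7.66, 3.42 and 7.56 FPKM in CFPAC and 7.10, 4.11 and 7.61 in KP3. The NEK6 siRNA library was the lowest in each line, while the NEK7 siRNA library was close to the control. Its edgeR log2 fold change was -0.97 (SE 0.18, adjusted p = 0.350), and the DESeq2 adjusted p was 0.000818.
SLC25A24, a calcium-regulated carrier of ATP-magnesium and phosphate, had 7.37, 4.73 and 11.0 FPKM in CFPAC and 10.6, 5.59 and 14.3 in KP3. It was lowest with NEK6 siRNA and highest with NEK7 siRNA in both lines. For NEK6 siRNA the edgeR value was -0.78 (SE 0.13, adjusted p = 0.296) and the DESeq2 adjusted p was 6.14e-05. For NEK7 siRNA the edgeR value was 0.47 (SE 0.13, adjusted p = 0.494) and the DESeq2 adjusted p was 0.0657.
SLC35A4, of a nucleotide sugar carrier family, had 20.4, 13.0 and 24.7 FPKM in CFPAC and 8.90, 4.56 and 9.60 in KP3, again lowest with NEK6 siRNA in each line (-0.80, SE 0.13, edgeR adjusted p = 0.303, DESeq2 adjusted p = 0.000139). SLC7A5, whose values are given above, was lower with NEK6 siRNA by -0.43 in CFPAC and -1.01 in KP3 (edgeR -0.77, SE 0.18, adjusted p = 0.524, DESeq2 adjusted p = 0.0215). Without a library its edgeR value ran from -1.03 to -0.51. Its heavy chain SLC3A2 differed by -0.21 and -0.33 and was not called by DESeq2 (adjusted p = 0.289).
SLC66A3, a PQ-loop protein whose cargo is not settled, was the one called higher. It had 5.52, 11.2 and 7.96 FPKM in CFPAC and 10.6, 20.4 and 22.8 in KP3, so the control library was the lowest in each line (NEK6 siRNA 0.98, SE 0.21, edgeR adjusted p = 0.460, DESeq2 adjusted p = 0.0100). The riboflavin importer SLC52A2 had 12.9, 6.12 and 12.3 against 12.5, 7.66 and 5.71. In CFPAC only its NEK6 siRNA library was low, and in KP3 both NEK siRNA libraries were low (NEK6 siRNA -0.86, SE 0.35, edgeR adjusted p = 0.676, DESeq2 adjusted p = 0.344). Leaving out a library moved this value from -1.36 to -0.46.

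With NEK7 siRNA, edgeR likewise called none of the 174, with a smallest adjusted p of 0.492. At an unadjusted p under 0.05 it gave 24 (13.8%, against 9.41% of all records), 13 higher (5.02% of all records) and 11 lower (4.39%). DESeq2 called 3 (1.72%, against 2.53%), with 0 higher (1.32% of all records) and 3 lower (1.21%). SLC38A7, a lysosomal exporter of glutamine and asparagine, had 3.70, 4.08 and 2.49 FPKM in CFPAC and 3.76, 3.87 and 2.39 in KP3. The control and NEK6 siRNA libraries were close to each other and the NEK7 siRNA library was below both in each line (-0.64, SE 0.14, edgeR adjusted p = 0.492, DESeq2 adjusted p = 0.00513).
SLC12A4 (KCC1), a potassium and chloride exporter, had 3.14, 3.04 and 2.16 FPKM against 3.33, 3.56 and 2.35 (-0.55, SE 0.14, edgeR adjusted p = 0.492, DESeq2 adjusted p = 0.0276). The heme carrier SLC48A1 was lower by -0.51 and -0.55 (edgeR -0.62, SE 0.16, adjusted p = 0.492, DESeq2 adjusted p = 0.0494). SLC12A4 overlaps LCAT and SLC48A1 overlaps RAPGEF3 on the opposite strand. Both of these records were also lowest in the NEK7 siRNA library of each line, LCAT at 0.814 and 0.694 FPKM and RAPGEF3 at 4.82 and 4.07, and whether reads were assigned by strand is not stated.
At least 1.5-fold in both lines with NEK7 siRNA, 2 genes were higher (0.638% of all records) and 0 lower (0.754%). They were SLC39A14 and SLC7A11, with differences in CFPAC of 0.59 each, close to the 0.58 that 1.5-fold makes on this scale, and neither passed after FPKM was rescaled by median ratios. SLC39A14 (ZIP14), a zinc, manganese and iron importer, had 13.1, 13.1 and 20.2 FPKM in CFPAC and 4.42, 10.9 and 16.5 in KP3. In KP3 the NEK7 siRNA library had 3.72 times the control by counts (95% interval 3.55 to 3.89, counting error only), and in CFPAC 1.55 times (1.503 to 1.60). Over both lines SLC39A14 did not pass (1.18, SE 0.36, edgeR adjusted p = 0.507, DESeq2 adjusted p = 0.0547), and its value ran from 0.58 to 1.88 with a library left out. SLC7A11 gave 1.05 (SE 0.34, edgeR adjusted p = 0.510, DESeq2 adjusted p = 0.0788) and ran from 0.52 to 1.71.
SLC36A1 (PAT1), a lysosomal amino acid and proton carrier, had 2.66, 1.63 and 1.35 FPKM in CFPAC and 2.82, 1.08 and 1.63 in KP3. Its control library was the highest in both lines. The edgeR log2 fold changes were -1.02 for NEK6 siRNA and -0.91 for NEK7 siRNA (adjusted p = 0.572 and 0.507), and the DESeq2 adjusted p-values were 0.0739 and 0.116.

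**Figure D4:**
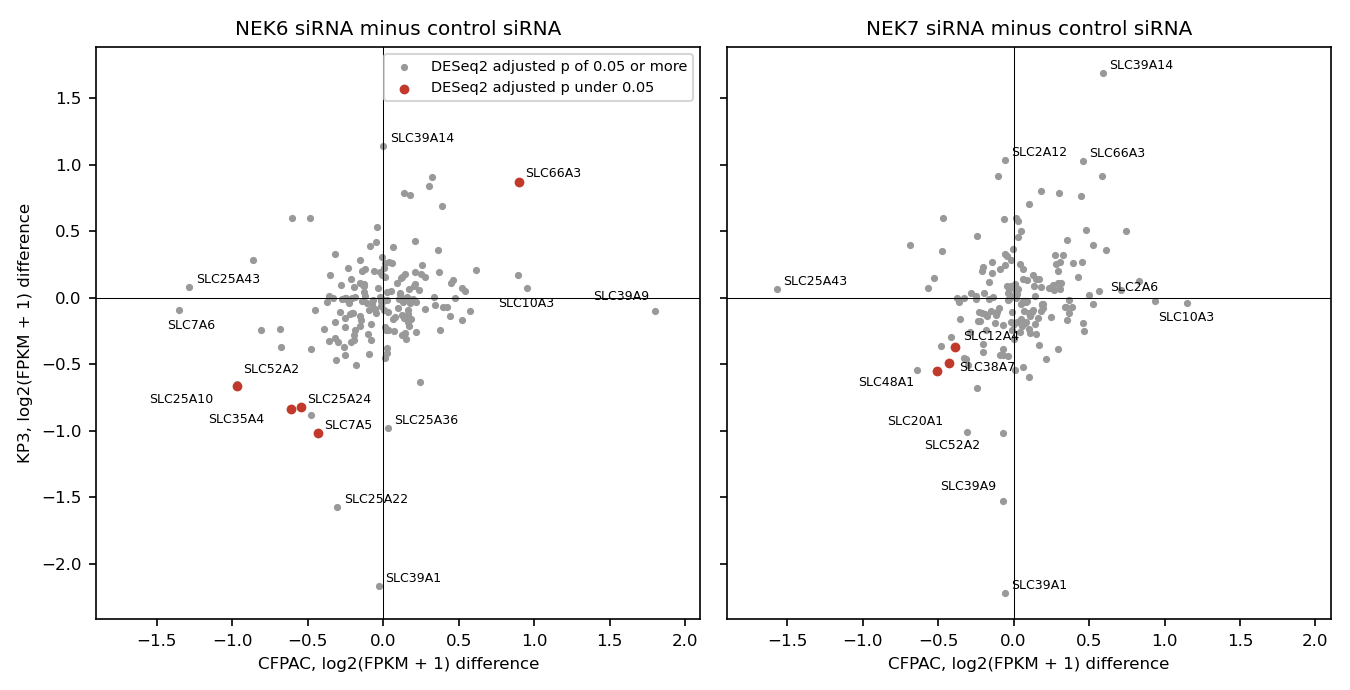
Difference of log2(FPKM + 1) between an siRNA and the control siRNA for each of the 174 genes, CFPAC on the x axis and KP3 on the y axis, NEK6 siRNA at left and NEK7 siRNA at right, 1 library per condition. Red points had a DESeq2 adjusted p under 0.05 over both lines, 5 for NEK6 and 3 for NEK7 siRNA. SLC39A1, at -2.17 and -2.22 in KP3, and SLC39A9, at 1.80 in CFPAC with NEK6 siRNA, lie near an axis.

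The widest siRNA differences were each seen in 1 line. SLC39A1 (ZIP1, ENSG00000143570, chromosome 1, 153959099 to 153967621), a zinc importer of the plasma membrane, had 61.7, 60.5 and 59.2 FPKM in CFPAC and 101, 21.6 and 20.8 in KP3. The KP3 control library stood apart, and both KP3 siRNA libraries had about the same lower level, 0.214 and 0.207 of the control by counts. The opposite-strand record CREB3L4 had 3.67, 4.33 and 4.86 in KP3.
SLC39A9 (ZIP9, ENSG00000029364, chromosome 14, 69398015 to 69462390), another zinc carrier of family 39, had 2.36, 10.7 and 2.20 FPKM in CFPAC and 11.2, 10.4 and 3.26 in KP3. It was high in 3 libraries and low in the other 3, and the high ones were the CFPAC NEK6, KP3 control and KP3 NEK6 siRNA libraries. The opposite-strand record ERH lay between 67.2 and 95.1 FPKM in all libraries.
In CFPAC, SLC25A43, of the mitochondrial carrier family, had 16.0, 5.99 and 4.73 FPKM, while KP3 had 3.64, 3.90 and 3.86. SLC7A6 had 8.64, 2.78 and 7.43 in CFPAC and 3.30, 3.04 and 2.97 in KP3. SLC10A3 went the other way, with 8.25, 17.0 and 19.5 in CFPAC and 3.34, 3.57 and 3.23 in KP3. Each of these stood apart in CFPAC and was level in KP3. The record SLC7A6OS, which overlaps SLC7A6, had 3.38, 2.40 and 3.62 FPKM in CFPAC, also lowest with NEK6 siRNA. In KP3 it had 6.04, 6.09 and 6.67.
In KP3, the mitochondrial glutamate carrier SLC25A22 had 19.9, 6.04 and 18.5 FPKM, low only with NEK6 siRNA, and 11.4, 9.08 and 12 in CFPAC. SLC20A1, whose values are given above, was 0.491 of the control by counts with NEK7 siRNA in KP3 (0.482 to 0.500) and 0.806 in CFPAC. At least 1.5-fold within a line, NEK6 siRNA gave 5 higher and 10 lower in CFPAC (3.76% and 4.72% of all records) and 9 higher and 10 lower in KP3 (4.87% and 4.42%). NEK7 siRNA gave 8 higher and 3 lower in CFPAC (4.61% and 4.82%) and 12 higher and 6 lower in KP3 (4.80% and 4.90%).

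**Figure D5:**
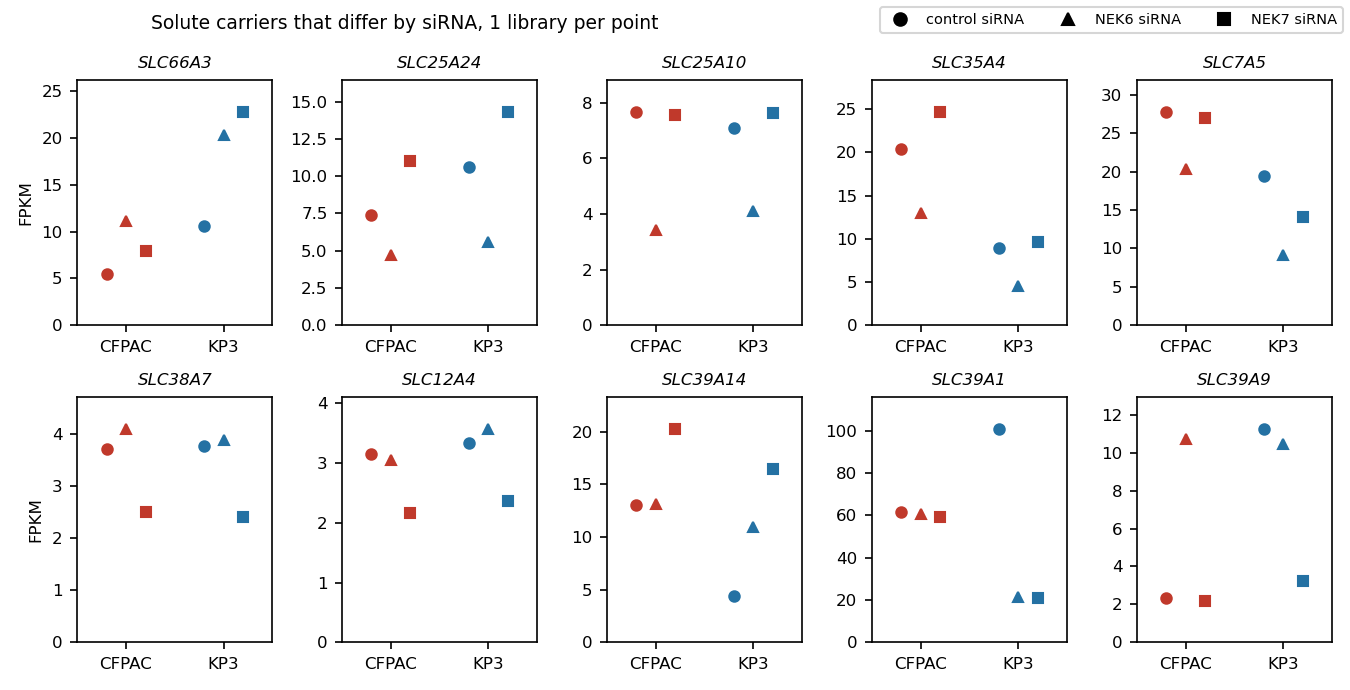
FPKM in each of the 6 libraries for 10 solute carriers that differ by siRNA, each panel on its own linear axis from 0. Circles are control siRNA, triangles NEK6 siRNA and squares NEK7 siRNA, red for CFPAC and blue for KP3. SLC25A10 and SLC35A4 are lowest with NEK6 siRNA in both lines, SLC38A7 and SLC12A4 with NEK7 siRNA, and SLC39A1 stands at 101 in the KP3 control against 21.6 and 20.8.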

How the data were processed

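RNA-seq of CFPAC and KP3 cells was analysed, with 1 library for each line and siRNA. Oligo(dT) beads were used to prepare the libraries, per the labels' protocols. The submitters' processing notes name cutadapt 1.9, HISAT2 2.0.4, StringTie 1.3.4d and edgeR, without roles. The authors deposited whole-number counts per gene, not normalized, and FPKM values of the same genes. The genome build and the strand setting of counting are not given in the sources used here. All 174 gene identifiers are in GENCODE v29 (GRCh38), and 173 overlap it on the same chromosome and strand. The exception is SLC25A6, which that annotation also lists on Y. Records on the opposite strand overlap 88 of the genes and same-strand records 47.

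All records that reached 1 FPKM somewhere were fitted together with edgeR 4.0.16 (R 4.3.3) on counts, with TMM normalization, line and siRNA as factors, quasi-likelihood F tests and Benjamini-Hochberg adjustment over all 14582. The common dispersion was 0.0685. The SE given with an edgeR log2 fold change is its absolute value divided by the square root of the F statistic. It was derived from the test and not estimated separately, also for genes with few counts in a line. DESeq2 1.42.0 and limma 3.58.1 were alternatives, as were other filters, other size factors, fits without a factor and each library left out. The fits were also run on simulated counts. Their dispersion was set below that of these data, so that run does not measure error rates of the calls here. Within-line differences used log2(FPKM + 1) with no test. FPKM and count ratios within a line were compared for 685 pairs, and 0 differed by over 1.5 times. Figures were made with matplotlib 3.10.9. The members and lists were chosen with earlier results of these data known. Named genes were a fixed set of carriers, those with the highest mean FPKM overall and per substrate class, the 15 highest and 15 lowest called by line, and those furthest from control in both lines or within a line. Further genes were named after their values were seen: SLC41A3, SLC25A12, SLC44A3 and SLC9A3. A result for 1 carrier is not reported here.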

Additional observations from a re-analysis of the deposited data

Results flagged for a closer look

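The mitochondrial citrate carrier SLC25A1 differed from control in opposite directions in the lines with NEK6 siRNA, by -0.61 in CFPAC and 0.60 in KP3 on the log2(FPKM + 1) scale, from 23.7 to 15.2 FPKM and from 39.3 to 60.0 FPKM. With NEK7 siRNA, compared with the same control libraries, the differences were -0.69 and 0.40. With 1 library per condition the difference between the lines was not tested.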

How the results depend on the processing

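DESeq2 called 5 carriers for NEK6 siRNA (1 higher, 4 lower) and 3 for NEK7 siRNA (0 higher, 3 lower) where edgeR called 0. The other edgeR settings, limma and each library left out also gave 0 for both. No paired analysis was possible because each line and siRNA has 1 library and the labels carry no replicate numbers beyond it; cell line was already a factor. The 125 line calls became 106 to 134 under other tests, size factors, filters that keep all 174 genes and a fit without siRNA, 103 to 109 with a library left out, and 58 of 79 tested with a mean FPKM of at least 5, where fewer genes were tested. In all leave-outs 93 of the 125 calls were kept, and all 125 kept their sign. Leaving out the CFPAC or the KP3 library of the same siRNA gave nearly the same line estimate. For SLC25A5 it was 0.51 without either control library. The remaining library of that siRNA then has no partner in the other line, so such pairs of leave-outs are not separate checks. Carriers not called by line could change sign with a library left out. SLC38A2 went from 0.19 to -0.08 without the CFPAC NEK6 siRNA library and to -0.07 without the KP3 NEK6 siRNA library. SLC1A5 went from 0.11 to -0.02 and SLC16A3 from 0.10 to -0.06 without the NEK7 siRNA library of either line. The 2 carriers at least 1.5-fold higher in both lines with NEK7 siRNA became 5 with a pseudocount of 0.1. They became 0 after median-ratio rescaling of FPKM, which divided the values of each library by a factor of 0.972 to 1.04. For NEK6 siRNA the 4 became 6 and 4. Differences within a line rest on single libraries, and depth also limits carriers with few counts, such as SLC16A7 in CFPAC with 0, 8 and 8.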
